A study of Homo sapiens with 3 samples.

Results

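Windows assigned to LMNA and FBL each held a short run of separate Nup93 peaks in DLD-1 cells. The members of the runs were chosen by position, as every interval of the peak list that lay inside one window on chromosome 1, assigned to LMNA, or one window on chromosome 19, assigned to FBL. The LMNA window held 6 peaks and the FBL window 4, so the runs make up 10 of the 404 peaks in the list (2.48%). The peaks were chosen for their positions, with the crowding already seen, so their number and their closeness are given as a description with no test.

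DLD-1 is an established human colorectal adenocarcinoma line, and no genotype or treatment beyond standard culture is named for it. Chromatin immunoprecipitation with sequencing (ChIP-seq) was done with an antibody against Nup93 in 2 libraries from separate biological replicates, and 1 library of sonicated Input chromatin served as the control. The deposited result is one list of peaks with a chromosome, a start and an end for each. It gives no height, no p-value and no value per library, so no peak below has a replicate error, its level in Input is not known here, and sequencing depth is unknown.

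Nup93 is a scaffold protein of the nuclear pore complex, the channel that crosses the nuclear envelope. LMNA encodes lamins A and C, filament proteins that line the inner face of that envelope and form the nuclear lamina together with the B-type lamins. FBL encodes fibrillarin, the methyltransferase of the box C/D small nucleolar ribonucleoproteins, which modifies ribosomal RNA in the nucleolus. Lamins thus belong to the nuclear periphery, where the pores also sit, and fibrillarin to a compartment inside the nucleus.

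Positions are in hg19, the build in the submitters' processing notes, and are counted from 1. No gene annotation of that build was used, so the gene names come from the windows and were not checked against exons. The RefSeq gene table of GRCh38.p14 places LMNA on chromosome 1, with MEX3A and SEMA4A as the nearest protein-coding genes on either side, and FBL on chromosome 19, between DYRK1B and FCGBP. In the RefSeq promoter table of the same build LMNA is on the plus strand and FBL on the minus strand. Peaks are therefore numbered along transcription, toward higher positions at LMNA and toward lower positions at FBL. No sequence of the peaks is printed, since no hg19 genome was used.

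The LMNA run began with a peak that stood apart and ended in a tight group. Peak 1 covered chr1:156084451-156085383 and was 933 bp wide. Peak 2, at chr1:156100085-156100816, was 732 bp wide. Between these neighbours lay 14.7 kb without a peak, which is 60.2% of the whole run and 75.4% of all its uncovered bases.

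The other 4 LMNA peaks lay in the last 5.09 kb of the run, 20.8% of its length. Peak 3 covered chr1:156103790-156104496 (707 bp) and peak 4 covered chr1:156104500-156105207 (708 bp). Peak 5 covered chr1:156105551-156106449 (899 bp), and peak 6 closed the run at chr1:156107929-156108882 (954 bp). Peaks 3 and 4 were almost the same width and nearly touched, with 3 bp between them, the smallest distance between any neighbours in the list.

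Spacing along the last part of the LMNA run was uneven. From peak 2 to peak 3 the gap was 2973 bp, from peak 4 to peak 5 it was 343 bp and from peak 5 to peak 6 it was 1479 bp. Peaks 3 to 5 together spanned 2660 bp, of which 87.0% was covered by peaks. From centre to centre, neighbours along the run were 15.5, 3.69, 0.711, 1.15 and 2.41 kb apart, so no single period recurred.

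Taken from its first to its last peak, the FBL run was more compact than the LMNA run. Peak 1 covered chr19:40330855-40331682 (828 bp) and peak 2 covered chr19:40329357-40330278 (922 bp). Peak 3 covered chr19:40328112-40328845 (734 bp), and peak 4 covered chr19:40324837-40325861 (1025 bp), the widest of the 10. Peaks 1 to 3 formed a group of 3571 bp, of which 69.6% was covered, and peak 4 lay farther downstream.

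Gaps at FBL were 576 bp between peaks 1 and 2, 511 bp between peaks 2 and 3 and 2250 bp between peaks 3 and 4. The first 2 were thus of similar length, and the last held 67.4% of the uncovered bases. The centres lay 1.45, 1.34 and 3.13 kb apart. The widest gap was thus the first along transcription at LMNA and the last at FBL, at lengths of 14.7 and 2.25 kb.

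The runs differed in length and in the share that peaks covered. LMNA peaks covered 4.93 kb of a 24.4 kb span, or 20.2%, and FBL peaks covered 3.51 kb of a 6.85 kb span, or 51.3%. Without the widest gap of each run the shares were 50.7% at LMNA and 76.3% at FBL, so the FBL share was the higher one either way. Peak borders are set by fragment length and by the peak caller, which is not given in the sources used here, so a covered share is a property of this list.

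**Figure D1:**
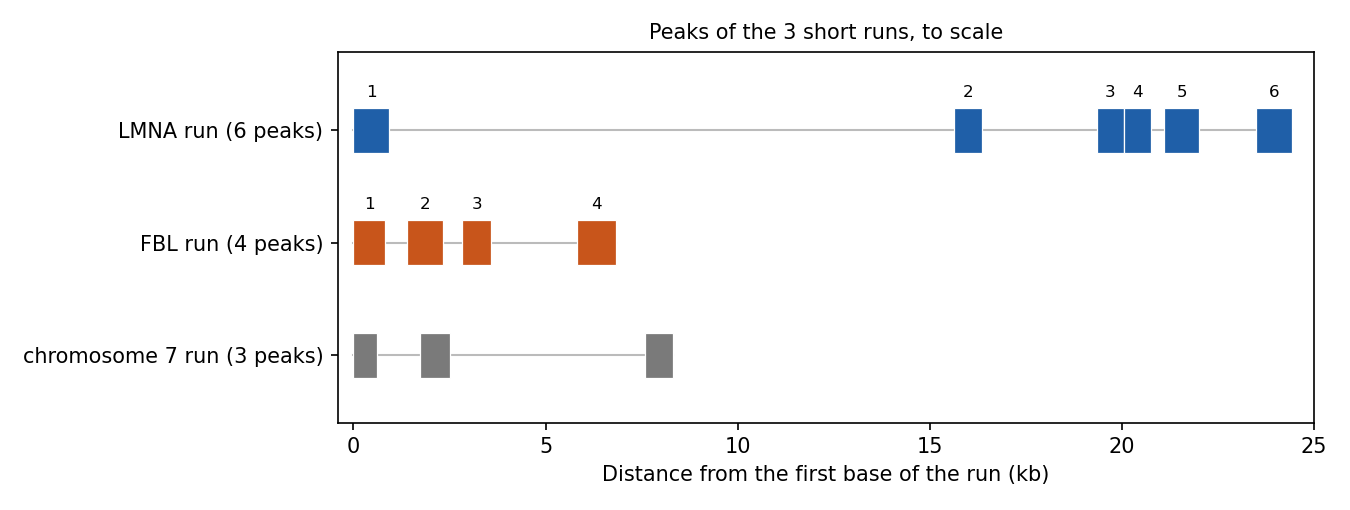
Peaks of the LMNA run, the FBL run and the chromosome 7 run, drawn to scale as boxes against distance from the first base of each run (kb). LMNA and FBL peaks are numbered along transcription, and the chromosome 7 run is drawn toward higher positions; LMNA shows 1 peak, a gap of 14.7 kb and then 5 peaks, while the FBL run ends within 6.85 kb.

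Width was not used in choosing the peaks. The 6 LMNA peaks measured 707 to 954 bp with a median of 815.5 bp, and the 4 FBL peaks measured 734 to 1025 bp with a median of 875 bp. These ranges overlapped, and within each run the widest peak was 1.35 times (LMNA) and 1.40 times (FBL) the narrowest. The widest peak of both runs was the last one along transcription, and the narrowest lay inside the run.

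All 10 peaks were wider than the median of the list, 704.5 bp, which by definition 50% of the list exceeds. LMNA peaks 3 and 4 passed it by only 2.5 and 3.5 bp. The upper quartile of the list, 851.75 bp, was passed by 5 of the 10 peaks (LMNA peaks 1, 5 and 6 and FBL peaks 2 and 4), against 25% of the list. The widest, FBL peak 4, ranked 59 of 404, and none of the 10 exceeded 1500 bp, as 27 peaks of the list did. The runs thus sat in the upper middle of the width distribution and not among its extremes.

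The 10 peaks had a median of 863.5 bp, compared with 696 bp in the other 394 peaks. Elsewhere on chromosome 1 the median of 29 peaks was 675 bp, and elsewhere on chromosome 19 the median of 18 peaks was 626.5 bp. Among the 23 other peaks of the list with a neighbour within 10 kb, the median was 735 bp, the range was 380 to 2570 bp and 60.9% were wider than the median of the list. Peaks of one run share their locus and are not replicates, so these medians are set side by side with no test.

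**Figure D2:**
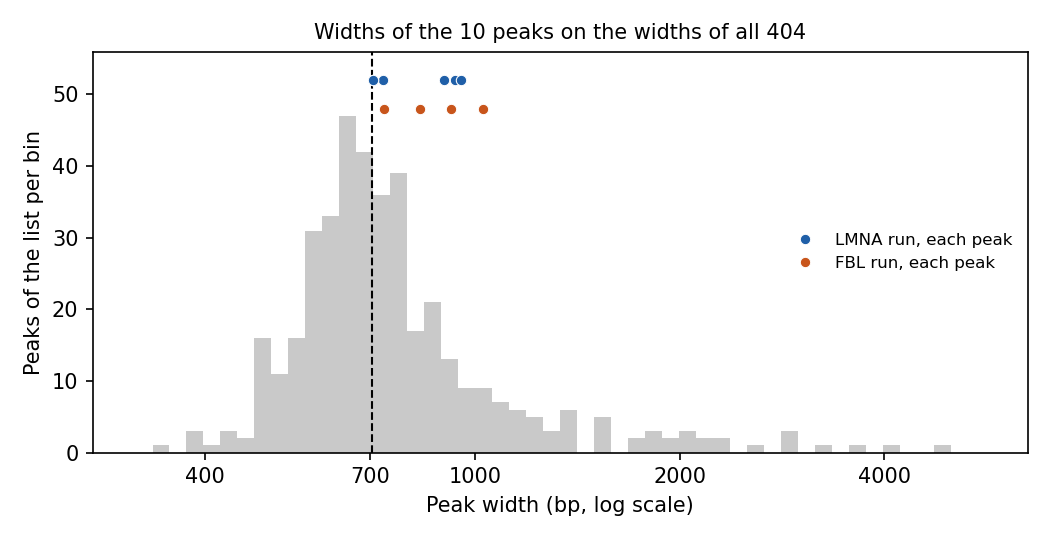
Histogram of the widths of all 404 peaks (bp, log scale; bars give peaks per bin), with the median of 704.5 bp as a dashed line and each LMNA and FBL peak as a point at its width. The height of the points has no meaning; all 10 points lie to the right of the line, between 707 and 1025 bp.

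Closeness of neighbours was the property by which the runs had been noticed, and it is given here as a description. The list had 375 pairs of neighbouring peaks on the same chromosome, with a median of 2.23 Mb between them. The 8 gaps inside the LMNA and FBL runs ranked 1, 3, 9, 12 and 24 (LMNA) and 5, 6 and 10 (FBL) from the smallest. They supplied 4 of the 7 pairs within 1 kb and 7 of the 19 pairs within 10 kb. LMNA peak 1 was the only one of the 10 with no neighbour within 10 kb.

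**Figure D3:**
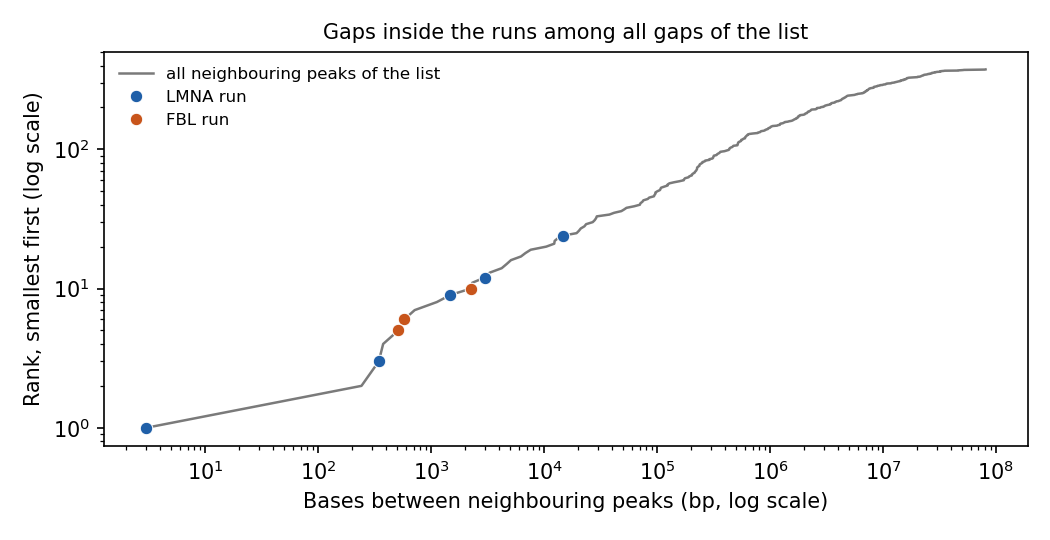
Rank of each of the 375 gaps between neighbouring peaks (log scale, smallest first) against its length (bp, log scale), with LMNA and FBL gaps as points on the line of all gaps. The points run from 3 bp to 14.7 kb, and all lie far below the median gap of 2.23 Mb.

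Distances from the runs to the next peaks of the list ranged from 436 kb to 46.2 Mb, and those on the lower-position side of both runs were shorter than the median of 2.23 Mb between neighbours. The nearest peak before the LMNA run ended at position 154302080, 1.78 Mb away, and was 623 bp wide. After the LMNA run no peak followed for 46.2 Mb, up to a peak of 637 bp that began at 202272009, and 7 of the 375 gaps in the list were longer. The nearest peak below the FBL run, 1188 bp wide, ended 436 kb away at 39889058, and the nearest above it, 847 bp wide, began 6.52 Mb away at 46850187. Of the 375 gaps, 203 were longer than the one before LMNA, 275 longer than the one below FBL and 123 longer than the one above it. The LMNA peaks were 6 of 35 peaks on chromosome 1 (17.1%), and the FBL peaks were 4 of 22 on chromosome 19 (18.2%).

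The windows that chose the peaks were wider than the runs. The first and last LMNA peaks lay 450 and 1118 bp inside the borders of their window. At FBL the distances were 836 bp at the lower border and 6318 bp at the upper one, which is the side from which FBL is transcribed. The nearest peaks outside were those given above, so moderate shifts of the borders outward would add none.

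The only other run of 3 or more peaks with neighbours no farther than 20 kb apart lay on chromosome 7 and had 3 peaks, of 617, 769 and 726 bp, with gaps of 1121 and 5080 bp. Peaks covered 25.4% of its 8.31 kb, a share between those of LMNA and FBL. Its narrowest peak lay below the median width of the list, unlike any peak at LMNA or FBL. Outside the LMNA and FBL runs, no stretch as long as either window (26 kb and 14 kb) held more than 3 peaks.

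A long first intron is known to separate the exon that opens the reading frame of lamins A and C from the next exon of LMNA. Bowtie2, the aligner in the submitters' processing notes, places a read as one stretch and does not split it across an intron, so reads from a spliced or cloned copy would map inside exons. Whether the 10 peaks coincide with exons, or whether the gap of 14.7 kb at LMNA falls in that intron, was not tested, since no exon border of hg19 was used. Without those borders, positions and widths do not separate peaks on exons of a spliced or cloned copy from Nup93 occupancy at several sites. Which of these the runs reflect was not tested. Comparison with exon borders of the build and with coverage in the Input library and in each ChIP library was not made here.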

How the data were processed

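The authors deposited one list of 404 peaks for the series, with no header; its columns hold a chromosome and, in bases, a start and an end. Per the submitters' processing notes, reads were checked with FastQC 0.72, aligned with Bowtie2 2.2.6 and referred to hg19. The peak caller, its threshold, later filters and the pooling of the replicates are not given in the sources used here. One start is 0, which makes starts 0-based; they are printed counted from 1.

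Widths, gaps, covered shares and ranks were computed with Python 3.11.15, numpy 2.4.6 and scipy 1.17.1; plots were drawn with matplotlib 3.10.9. On 20 simulated lists, planted runs were recovered in 20. That checks the code only, since planted gaps were set below the 20 kb limit that defines a run. No test was run: the list has no value per library, and the peaks were chosen by position. The windows, the named genes (LMNA and FBL) and the alternatives were chosen with earlier results of these data known. The planned comparison with exons, and the planned counts of peaks at other lamina, nucleolar and Nup93-complex genes, needed an annotation of hg19 and were not run.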

Additional observations from a re-analysis of the deposited data

How the results depend on the processing

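Joining peaks at most 1 kb apart left 4 LMNA regions and 2 FBL regions in place of 6 and 4 peaks. The joined regions were 2660 bp (LMNA) and 3571 bp (FBL) wide, which ranked 9 and 4 by width among 397 regions. The covered share became 21.6% at LMNA and 67.1% at FBL, and the median width 943.5 bp and 2298 bp. Without the widest gap the covered shares were 50.7% and 76.3%. These changes follow from the construction of the alternatives. Joining within 100 bp left 5 LMNA and 4 FBL peaks. Among the 202 widest peaks, used because the list gives no strength, 6 and 4 were kept. This repeats that all 10 peaks were wider than the median of the list. LMNA peaks 3 and 4 ranked 199 and 198 by width, close to that cut. Runs built without windows held 6 and 4 peaks at 20 kb. At 10 kb, an alternative chosen after seeing the data, LMNA peak 1 dropped out, which left 5 peaks covering 45.5% of 8.80 kb, and FBL was as listed. Alternatives for exons were not run. No library could be left out and no paired analysis was possible because peaks carry no value for any single ChIP or Input library. With unknown depth and caller threshold, bases outside the peaks cannot be read as free of signal.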
